A study of Homo sapiens with 14 samples.

Results

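Annexin genes were followed across a polyA RNA-sequencing experiment in SH-EP cells, an adherent, established line of human neuroblastoma. The members were 10 genes taken by symbol (ANXA1, ANXA2, ANXA3, ANXA4, ANXA5, ANXA6, ANXA7, ANXA8, ANXA10 and ANXA11), and all 10 were found among the 61533 genes of the count table. ANXA8 had been singled out for its difference between lenalidomide and DMSO in SPARK-ON cells, so that comparison is described by values, with no test. The member list was chosen by family name around that measured log2 change. All groups were SH-EP cells described as n-Myc lines. The SPARK-ON n-Myc line was treated with lenalidomide or with DMSO, its solvent (3 libraries each), and the n-Myc control line without SPARK-ON with DMSO (3 libraries) or lenalidomide (2 libraries). By the series' design text the SPARK-ON cells are 1 clone with n-Myc below the concentration at which it phase-separates, and lenalidomide brings that separation about without altering the amount of the protein. The line without SPARK-ON serves to measure what lenalidomide does by itself. Clone and construct therefore cannot be told apart in any comparison of the lines. The sources used here give no dose or time of treatment.

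Annexins are cytosolic proteins that bind acidic phospholipids, such as phosphatidylserine, when calcium is present. Each has a conserved core of repeats, which in most annexins holds working calcium sites, and a variable N-terminal tail that binds partners, often S100 proteins. Annexins take part in membrane repair, endocytosis, exocytosis and the linking of membranes to actin. Annexin A1 is secreted and acts on formyl peptide receptors to limit inflammation, annexin A2 forms a complex with S100A10 that binds plasminogen activator and plasminogen at the cell surface, and annexin A5 is the standard probe for exposed phosphatidylserine.

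Libraries held 6614671 to 21511684 counts; the shallowest was SPARK-ON lenalidomide replicate 3, and the next held 14647340. Levels are CPM, a gene's share of its library's counts after TMM scaling. MYCN itself was at 2277 ± 109 CPM in SPARK-ON DMSO (SD, n = 3) and 2426 ± 292 CPM in control DMSO (SD, n = 3), a log2 difference of -0.09 that did not pass (edgeR adjusted p = 0.404). All 8 mesenchymal neuroblastoma markers were above 1 CPM in both lines. Their summed level was 1492 to 1693 CPM in SPARK-ON and 2769 to 2892 CPM in control libraries, with VIM and CD44 lower and FN1 higher in SPARK-ON DMSO by edgeR. Of 8 adrenergic markers, 1 was above 1 CPM in each line, and PHOX2A, ISL1 and CHGA were at 0 in all libraries. No epithelial marker of 5 had a mean over 1 CPM in either line, with summed levels of 0.358 to 2.35 CPM in SPARK-ON and 0 to 0.271 CPM in control libraries, and KRT5 at 0 throughout. The other 5 mesenchymal markers did not pass, nor did KRT19, the only epithelial marker tested (adjusted p = 0.103), and the adrenergic sums overlapped (at most 8.28 CPM in SPARK-ON and 6.40 to 8.73 CPM in control libraries). The part of VIM, CD44 and FN1, which differed with the line, in the annexin differences was not tested. In bulk RNA, fewer cells with a transcript and less transcript per cell cannot be told apart. The replicates are known only by number, so p-values measure the spread between these libraries, which may be technical.

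ANXA8 (ENSG00000265190.7) lies on the minus strand of chromosome 10 (GRCh38, 47460162 to 47484158), and a near copy, ANXA8L1, lies on the plus strand of the same chromosome (46375627 to 46391784). Their coding sequences are both 1095 bases long and differ at 5 positions, which is 99.5% identity, with the longest identical run 408 bases. The stretch from coding base 614 to 673 is shown because it holds 2 of those positions close together, in capitals.

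ANXA8: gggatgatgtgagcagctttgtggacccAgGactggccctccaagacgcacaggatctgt
ANXA8L1: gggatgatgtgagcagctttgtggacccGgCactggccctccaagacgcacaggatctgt

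Of all 100-base windows in the annotated ANXA8L1 transcripts, 66.6% also occurred in an ANXA8 transcript, and 38.6% of the ANXA8 windows occurred in ANXA8L1. The sources used here give neither read length nor the handling of reads that match both genes, so ANXA8 is uncertain as a single gene and is also given below summed with ANXA8L1. Of ANXA2 windows of that length, 2.72% occurred in its processed pseudogene ANXA2P2, and 31.2% of the ANXA2P2 windows occurred in ANXA2. Of the members, ANXA7 alone overlapped another gene's exons, an antisense transcript over 3.67% of its exon length that had 6 counts in all libraries.

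RefSeq's promoter table (GRCh38.p14) had entries for 9 of the 10 members, with 13 start sites. ANXA8 had none and was not searched. The 250 bases before each start were searched on both strands for CACGTG (the canonical E-box bound by MYC family proteins), TGANTCA (AP-1), GGGCGG (the GC box) and TATAAA. The E-box was in 2 of 13 member windows (ANXA6 and ANXA4) against 6.34% of all 35116 windows. The AP-1 motif was in 1 (ANXA2) against 6.57%, the GC box in 7 against 42.6% and the TATA box in 4 (ANXA1, ANXA2, ANXA10, ANXA11) against 10.7%. The 30-base stretches are shown, with the motif in capitals, for those searched members whose levels differed most between the lines or were the most abundant. The last 2 come from the same ANXA2 window. A match describes the letters and was not measured as a bound site.

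ANXA6: gcctctgcgcgcCACGTGtccggctcggag
ANXA10: ctgataactaagTATAAAtacagtatctca
ANXA1: cctttaaaatccTATAAAatcagaagccca
ANXA2 (TATAAA): ggatgtggcgggTATAAAagccccacccag
ANXA2 (TGANTCA): ggcgggccggggTGAGTCAcccctgacttg

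The ANXA6 stretch is on the minus strand at chr5:151157812-151157841, with CACGTG beginning 50 bases before the start. The ANXA10 stretch is at chr4:168092496-168092525 on the plus strand, and the ANXA1 stretch at chr9:73151822-73151851 on the plus strand. The ANXA2 stretches are on the minus strand at chr15:60398000-60398029 and chr15:60398096-60398125. The windows differed in composition, from 31.2% GC for ANXA10 and 38.4% for ANXA1 to 65.6% for ANXA6 and 78% for ANXA2, against a median of 58% over all windows.

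Levels were scaled by exon length, taken as the joined exons of all annotated transcripts of a gene. On that scale ANXA2 was the most abundant annexin in every group, followed by ANXA1, ANXA5 and ANXA7. In SPARK-ON DMSO the levels were 254 ± 7.13 CPM per kb for ANXA2, 211 ± 11.1 for ANXA1, 85.5 ± 1.90 for ANXA5 and 55.9 ± 1.35 for ANXA7 (SD, n = 3). Below them came ANXA6 at 13.7 ± 0.913 CPM per kb and ANXA11 at 13.1 ± 0.364, whose libraries overlapped, then ANXA8 at 3.69 ± 0.0746 and ANXA4 at 1.88 ± 0.326. ANXA10 at 1.10 ± 0.101 and ANXA3 at 1.09 ± 0.0847 CPM per kb overlapped at the bottom. Other neighbours in that order did not overlap. The lower ranks depend on the length used. In plain CPM, ANXA11 at 112 ± 3.10 stood above ANXA6 at 74.4 ± 4.95 in SPARK-ON DMSO. ANXA4 at 20.8 ± 3.61 CPM and ANXA8 at 18.3 ± 0.370 CPM overlapped there.

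In control DMSO the same 4 genes led, at 333 ± 31.7, 139 ± 11.6, 93.9 ± 8.51 and 36.5 ± 2.02 CPM per kb. ANXA11 at 15.6 ± 1.52 stood above ANXA6 at 3.02 ± 0.137, which overlapped ANXA4 at 2.58 ± 0.352. ANXA3 was at 0.813 ± 0.139, and ANXA10 at 0.0288 ± 0.0300 and ANXA8 at 0.00321 ± 0.00557 CPM per kb overlapped near 0. Under lenalidomide the order was the same as in DMSO within the SPARK-ON line. In the control line under lenalidomide, ANXA8 and ANXA10 changed places, again with overlapping libraries.

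**Figure D1:**
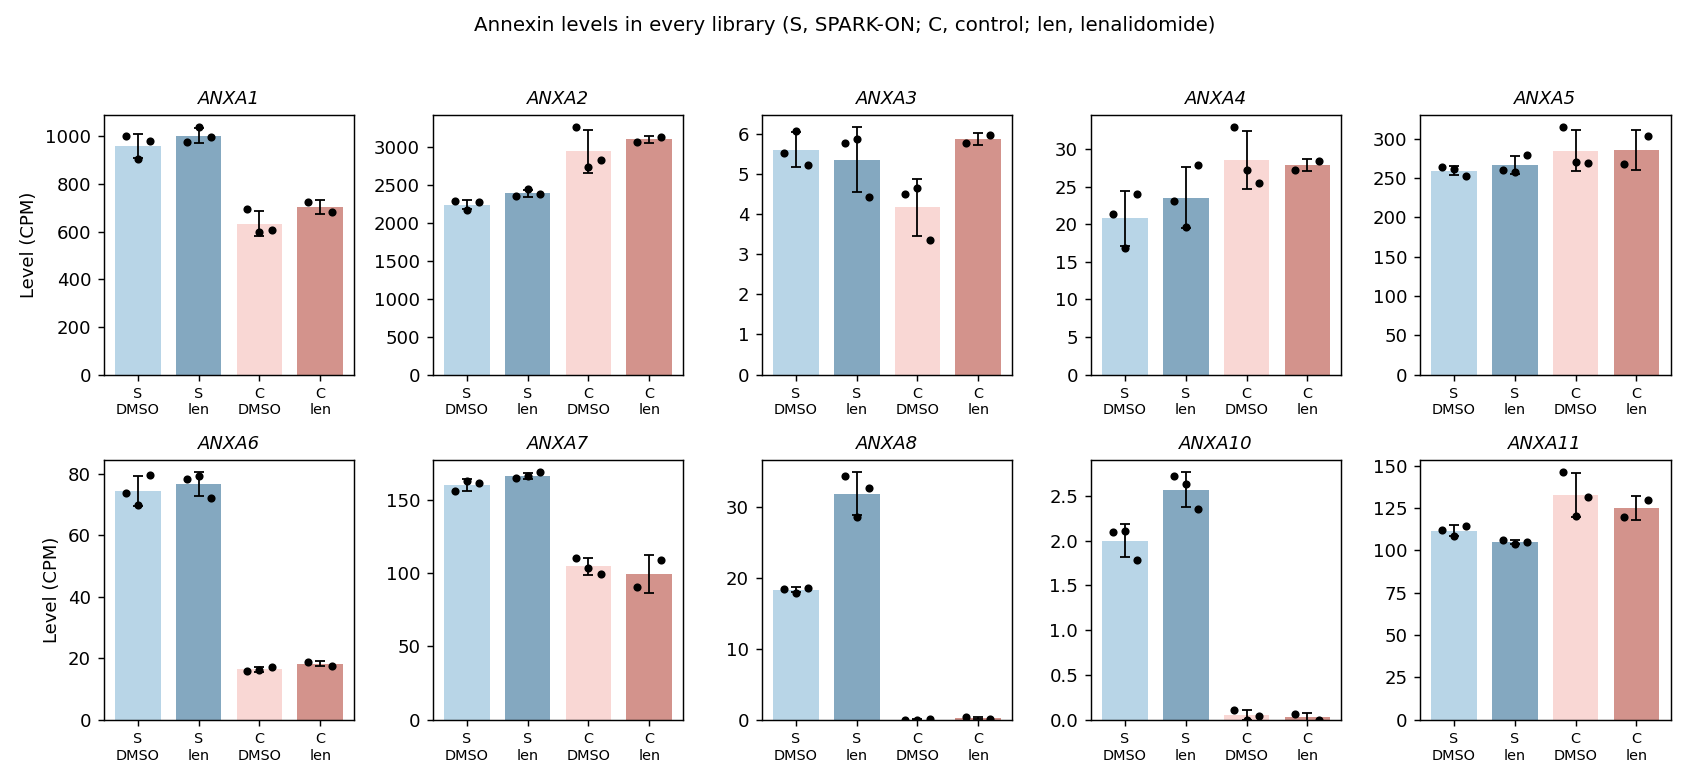
Level of each of the 10 annexins in every library, in CPM on axes of its own, with 1 point per library, bars for the mean of each of the 4 groups (S, SPARK-ON; C, control; len, lenalidomide) and error bars of 1 SD. ANXA8, ANXA10 and ANXA6 are far higher in all SPARK-ON libraries, ANXA1 and ANXA7 are higher in all of them, and ANXA2 and ANXA11 are lower in all of them.

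Between the lines in DMSO, ANXA1, ANXA6, ANXA7, ANXA8 and ANXA10 were higher in SPARK-ON cells, and ANXA2, ANXA4 and ANXA11 were lower. ANXA8 and ANXA10 went from 3 counts or fewer over the control group to 102 counts or more, ANXA6 was 4.53-fold higher, and the other 5 differed by a log2 of 0.62 or less in size. That is 8 of 10 members called (edgeR's quasi-likelihood test, Benjamini-Hochberg adjusted p under 0.05 over 16056 genes), beside 41.6% of all genes tested. By direction, 5 members were higher beside 21.1% of genes, and 3 were lower beside 20.4%. All 10 had groups that did not overlap, beside 50.8% of all genes. ANXA8 and ANXA10 passed the filter on low counts only through SPARK-ON libraries and had to differ, in the calls and in the overlap. Of the other 8 members, 3 were called higher and 3 lower, and all 8 had groups that did not overlap. The median log2 difference was 0.52 over the 10 members, 0.15 without ANXA8 and ANXA10, and 0.01 over all genes.

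Under lenalidomide the same 5 members were higher in SPARK-ON cells, and ANXA2 and ANXA11 were lower. These 7 of 10 stood beside 39.4% of all genes called, with 19.7% higher and 19.7% lower. Groups did not overlap for the same 7 members, ANXA8 and ANXA10 among them, beside 59.6% of genes. Without ANXA8 and ANXA10, 5 of 8 were called and did not overlap, 3 higher and 2 lower. The median was 0.21 over the 10 members, -0.10 without ANXA8 and ANXA10, and 0.02 over all genes. Over all 11 libraries, 5 members were higher in every SPARK-ON library than in any control library, and 2 were lower in every one. ANXA3, ANXA4 and ANXA5 overlapped. ANXA8 and ANXA10, which had to differ, are among the 5. The share of all genes was not computed for this count, so it has no background here. With libraries scaled by total count alone, the median of all genes shifted from 0.01 to 0.10 in DMSO and from 0.02 to 0.12 under lenalidomide. The share of calls that were higher in SPARK-ON then went from 50.9% to 62.6% in DMSO and from 49.97% to 62.8% under lenalidomide.

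**Figure D2:**
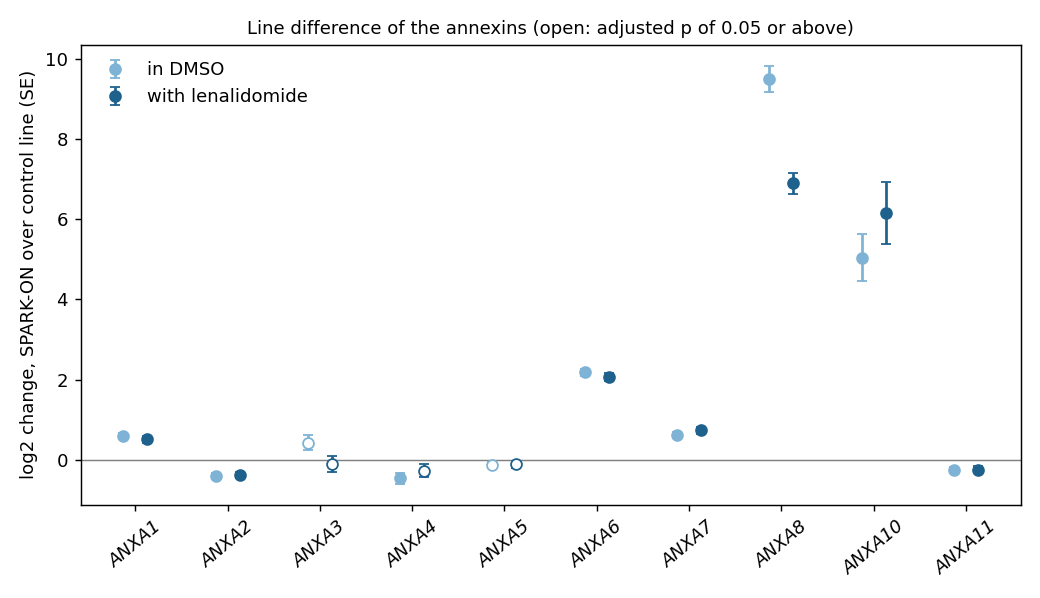
Fitted log2 difference of each annexin, SPARK-ON over control line, in DMSO and under lenalidomide, with bars of 1 SE and open symbols where the adjusted p was 0.05 or above. ANXA8 and ANXA10 lie far above the rest, but their control groups held 9 counts or fewer, so those fitted values depend on the small count edgeR adds and are not bounds.

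ANXA8 encodes an annexin studied mainly in epithelia and leukemia. Its counts were 308, 271 and 363 in SPARK-ON DMSO replicates 1 to 3 (18.5, 17.9 and 18.6 CPM) and 567, 466 and 222 under lenalidomide (34.3, 28.5 and 32.7 CPM). Control DMSO libraries held 0, 0 and 1 counts, and control lenalidomide libraries 6 and 3. No control library came near a SPARK-ON library. By summed counts the SPARK-ON level in DMSO was 1030-fold the control level, with an exact 95% interval of 184 to 40714 for 942 against 1 counts. Under lenalidomide it was 122-fold, with an interval of 63.9 to 267 for 1255 against 9 counts. Such intervals cover counting error only. Without control DMSO replicate 3, the library with that count, the DMSO ratio becomes a bound of at least 215-fold, and without control DMSO replicate 1 it is 692. Without control lenalidomide replicate 1 the lenalidomide ratio is 198, and without control lenalidomide replicate 2 it is 83.4.

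ANXA8L1 followed the same division. Like ANXA8, it passed the filter only through SPARK-ON libraries and had to differ. Its counts may include reads that match both genes, so it is not a separate result. It held 151, 90 and 160 counts in SPARK-ON DMSO, 186, 180 and 67 in SPARK-ON lenalidomide, 0 in each control DMSO library, and 0 and 3 in control lenalidomide. In DMSO this is at least 146-fold higher in SPARK-ON cells, with 3 counts over the control group taken as the floor. Summed, ANXA8 and ANXA8L1 were at 27.5, 23.8 and 26.7 CPM in SPARK-ON DMSO and at 45.6, 39.5 and 42.5 CPM in SPARK-ON lenalidomide. In control cells the sum was 0, 0 and 0.0478 CPM in DMSO and 0.379 and 0.319 CPM under lenalidomide. The presence of the pair in SPARK-ON libraries thus did not depend on which gene a shared read was given to. ANXA8L1 took 23.2% to 32.9% of the pair's counts across the 6 SPARK-ON libraries.

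**Figure D3:**
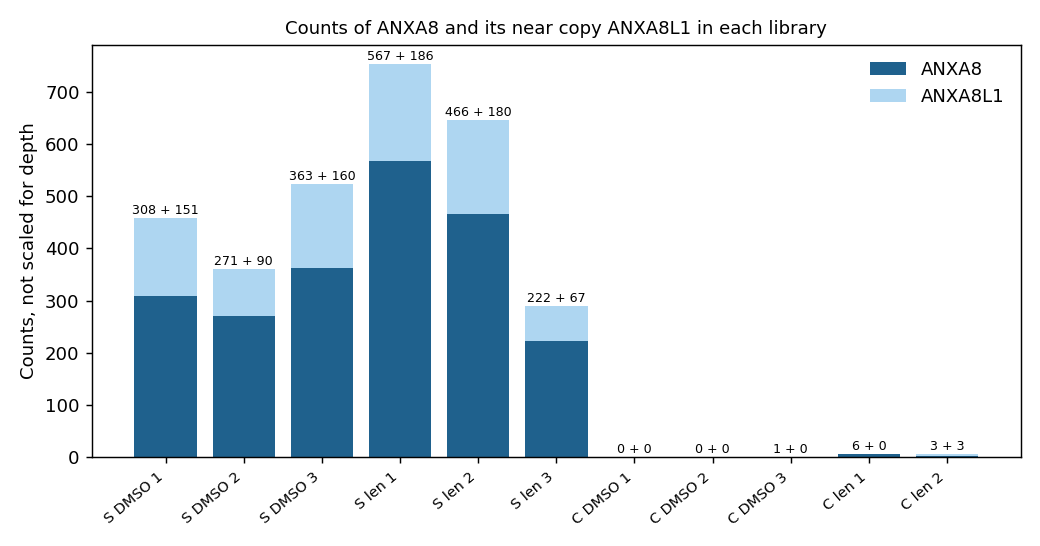
Counts of ANXA8 and ANXA8L1 in each library (S, SPARK-ON; C, control; len, lenalidomide), not scaled for depth and stacked so that the bar height is their sum. The 6 SPARK-ON libraries hold 289 to 753 counts and the 5 control libraries 6 or fewer; the low bar of SPARK-ON lenalidomide replicate 3 is that of the shallowest library.

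ANXA10 (ENSG00000109511.12, chromosome 4, 168092515 to 168187690, plus strand), an annexin known from gastric epithelium, was low throughout. It held 35, 32 and 35 counts in SPARK-ON DMSO (2.10, 2.11 and 1.79 CPM) and 45, 43 and 16 counts in SPARK-ON lenalidomide (2.73, 2.63 and 2.35 CPM). Control DMSO libraries had 2, 0 and 1 counts, and control lenalidomide libraries 1 and 0. Every SPARK-ON library was thus above every control library. The count ratio was 37.2 in DMSO (95% interval 12.4 to 183, 102 against 3 counts) and 90.8 under lenalidomide (15.9 to 3619, 104 against 1). Without control DMSO replicate 1 the DMSO ratio is 74.9, and without control DMSO replicate 2 it is 26.0. Without control lenalidomide replicate 1 the other ratio becomes a bound of at least 16.4-fold, and without replicate 2 it is 41.5.

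ANXA6 (ENSG00000197043.14, chromosome 5, 151100712 to 151157882, minus strand) encodes the largest annexin, with a doubled core, which acts in membrane repair and cholesterol traffic. It was at 73.7, 69.9 and 79.7 CPM in SPARK-ON DMSO and 78.1, 79.3 and 72.1 CPM in SPARK-ON lenalidomide. Control libraries held 15.8, 16.1 and 17.2 CPM in DMSO and 18.9 and 17.6 CPM under lenalidomide, so the lines were far apart. The log2 difference was 2.18 (SE 0.0888, edgeR adjusted p = 1.08e-12) in DMSO and 2.07 (SE 0.103, adjusted p = 2.5e-11) under lenalidomide.

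ANXA7, a GTP-binding annexin of exocytosis, was at 156, 163 and 161 CPM in SPARK-ON DMSO and 165, 166 and 169 CPM in SPARK-ON lenalidomide. It was at 111, 104 and 99.0 CPM in control DMSO and 90.3 and 109 CPM in control lenalidomide. All SPARK-ON libraries were higher, by a log2 of 0.62 (SE 0.0769, edgeR adjusted p = 3.6e-06) in DMSO and 0.74 (SE 0.088, adjusted p = 2.47e-06) under lenalidomide.

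ANXA1 and ANXA2, the abundant pair, moved in opposite directions. ANXA1 was at 999.6, 903.1 and 978.6 CPM in SPARK-ON DMSO and at 975.4, 1039 and 996.3 CPM under lenalidomide. Control libraries held 693.9, 598.3 and 607.0 CPM in DMSO and 724.8 and 682.8 CPM under lenalidomide, all below the SPARK-ON libraries. The log2 difference was 0.60 (SE 0.0697, edgeR adjusted p = 1.42e-06) in DMSO and 0.51 (SE 0.0788, adjusted p = 4.65e-05) under lenalidomide.

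ANXA2 was at 2282, 2167 and 2270 CPM in SPARK-ON DMSO and 2351, 2441 and 2379 CPM under lenalidomide. It was at 3259, 2734 and 2827 CPM in control DMSO and 3070 and 3131 CPM in control lenalidomide, above every SPARK-ON library. The log2 difference was -0.39 (SE 0.0645, edgeR adjusted p = 7.93e-05) in DMSO and -0.38 (SE 0.0715, adjusted p = 0.000394) under lenalidomide. As a share of all counts on the 10 members, which no scaling of libraries can alter, ANXA2 took 58.0% to 58.9% in SPARK-ON and 70.6% to 71.2% in control libraries. The share of ANXA1 was 24.3% to 25.4% in SPARK-ON and 15.2% to 16.8% in control libraries.

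ANXA11, which tethers RNA granules to lysosomes, and ANXA4, an annexin of secretory epithelia, differed less. ANXA11 was at 112, 108 and 115 CPM in SPARK-ON DMSO and 146, 120.3 and 131 CPM in control DMSO. Under lenalidomide it was at 106, 104 and 105 CPM in SPARK-ON and 119.9 and 129.8 CPM in control cells. Its log2 difference was -0.25 in both (SE 0.0771, edgeR adjusted p = 0.0155 in DMSO, and SE 0.0867, adjusted p = 0.0294 under lenalidomide). The call in DMSO was lost without SPARK-ON DMSO replicate 2 (adjusted p = 0.0678), with 0.00394 to 0.0971 over all alternatives. Under lenalidomide it was lost without any SPARK-ON library (0.0648 to 0.0800) or control replicate 2 (0.174), with a range of 0.0214 to 0.176.

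ANXA4 was at 21.4, 16.9 and 24.0 CPM in SPARK-ON DMSO and at 32.9, 27.2 and 25.4 CPM in control DMSO. The log2 difference was -0.45 (SE 0.139, edgeR adjusted p = 0.0139). Without SPARK-ON DMSO replicate 2, the lowest library, it was -0.33 and no longer passed (adjusted p = 0.0906, with 0.00105 to 0.0906 over all alternatives). Under lenalidomide the libraries overlapped, at 23.1, 19.6 and 27.8 CPM in SPARK-ON and 27.2 and 28.4 CPM in control cells, and the difference did not pass (log2 -0.27, adjusted p = 0.194).

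ANXA5 and ANXA3 did not pass in either comparison of the lines. ANXA5 was at 253 to 263 CPM in SPARK-ON DMSO and 269 to 315 CPM in control DMSO, a log2 difference of -0.13 (SE 0.0759, edgeR adjusted p = 0.171). ANXA3, an annexin of neutrophils, was at 5.52, 6.07 and 5.21 CPM in SPARK-ON DMSO and at 4.50, 4.64 and 3.34 CPM in control DMSO. Its libraries did not overlap there, and the log2 difference of 0.43 (SE 0.185) had an adjusted p of 0.0709. Under lenalidomide the control libraries, at 5.75 and 5.96 CPM, lay within or above the SPARK-ON range of 4.41 to 5.87 CPM (log2 -0.10, adjusted p = 0.734).

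Lenalidomide in control cells, the comparison meant to show what the drug does without SPARK-ON, called none of the 10 annexins (edgeR), beside 0.0436% of all genes, or 7. Groups did not overlap for 3 members, ANXA3, ANXA6 and ANXA8, beside 14.5% of genes. At an unadjusted p under 0.05 there were 2 members, ANXA3 and ANXA8, beside 4.82% of genes, and DESeq2 and limma-voom also called 0. ANXA3 was at 4.50, 4.64 and 3.34 CPM in DMSO and 5.75 and 5.96 CPM with lenalidomide (log2 0.50, SE 0.204, adjusted p = 0.95). ANXA8 went from 0, 0 and 1 counts to 6 and 3, a ratio of 14.6 with an interval of 2.02 to 640.2 (adjusted p = 0.459). The remaining 8 had fitted log2 changes between -0.73 (ANXA10, on 3 counts against 1) and 0.15. This comparison had 2 lenalidomide libraries.

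In SPARK-ON cells with lenalidomide, the comparison from which ANXA8 had been chosen, ANXA8 went from the 17.9 to 18.6 CPM given above to 28.5 to 34.3 CPM, without overlap. The fitted log2 change was 0.80 (SE 0.127), and the sum with ANXA8L1 went from 26.0 ± 1.96 to 42.5 ± 3.05 CPM (SD, n = 3 each). Over all genes this comparison called 0.0685%, or 11. The other members had log2 changes from -0.09 (ANXA11) to 0.37 (ANXA10, SE 0.369). ANXA2, ANXA7 and ANXA10 were also higher without overlap (9.62% of all genes were), ANXA11 was lower without overlap (8.17% of all genes were), and the members' median was 0.06 against 0.01 for all genes.

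The change in SPARK-ON cells minus that in control cells was -2.61 for ANXA8 (SE 0.907, log2), with 10 counts in all behind the control side, and -0.53 for ANXA3 (SE 0.277). For ANXA10 it was 1.11 (SE 1.41), and for the remaining 7 it lay between -0.11 and 0.18. Without control DMSO replicate 3, the library with the single ANXA8 count, the ANXA8 value was -4.31. The interaction called 0 of all genes by edgeR, with 4.17% at an unadjusted p under 0.05, 0 by limma-voom and 3 by DESeq2.

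**Figure D4:**
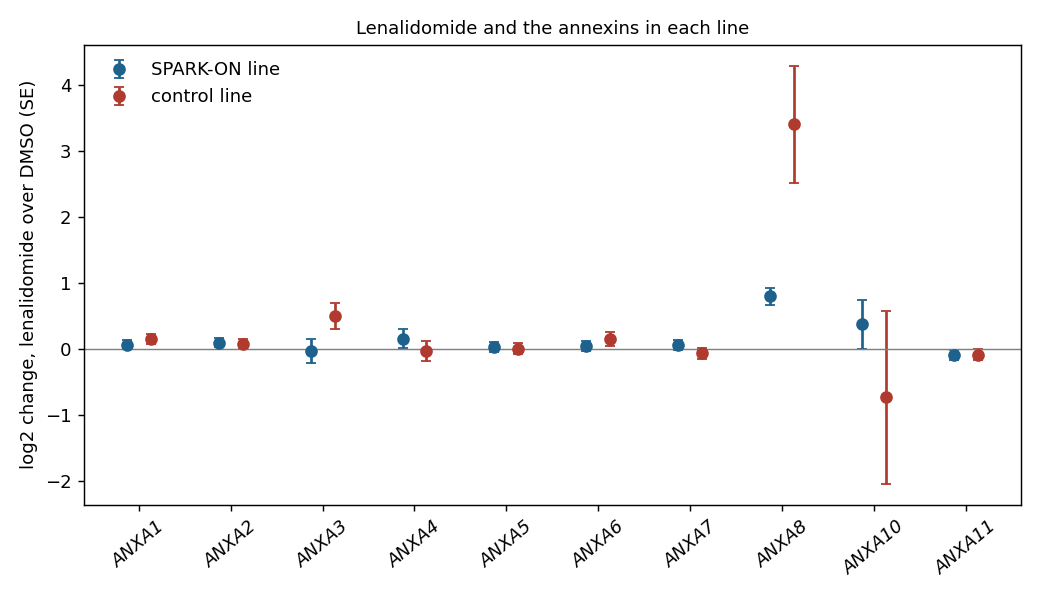
Fitted log2 change of each annexin with lenalidomide over DMSO in the SPARK-ON line and in the control line, with bars of 1 SE. Most members lie near 0 in both; ANXA8 is at 0.80 in SPARK-ON cells and at 3.40 in control cells, where it rests on 9 counts against 1.

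Genes that work with annexins were taken as 46 partners in 6 role groups, of which 39 were tested. In DMSO, 12 were higher in SPARK-ON cells, 12 were lower and 15 were not called, so 24 of 39 were called beside the 41.6% of all genes given above. Without 3 genes that passed the filter only through SPARK-ON libraries, 9 were higher and 12 lower of 36. The median log2 difference was 0.02 over the 39, -0.03 over the 36 and 0.01 over all genes. Under lenalidomide the counts were 11, 11 and 17, beside 39.4% of all genes called. In control cells lenalidomide called 0 of 39 by edgeR, and in SPARK-ON cells it called 1, PLAU, beside 0.0685% of all genes (log2 0.51, adjusted p = 0.0162). That call was lost in all 6 fits that left out 1 SPARK-ON library (adjusted p = 0.0533 to 0.217), which called 0 to 5 genes in all against 11. It was also lost with the replicate block (adjusted p = 0.123). The call was kept under the other settings, with adjusted p = 8.3e-06 by DESeq2 and 0.0059 by limma-voom. The PLAU log2 change was 0.47 to 0.53 in every fit.

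Of 7 genes for S100 proteins and AHNAK, a scaffold of the annexin A2 complex, 3 were higher and 2 lower. Of all genes, 21.1% were higher and 20.4% lower. S100A4, a partner of annexin A2 tied to cell motility, was at 32.7 ± 1.86 CPM in SPARK-ON and 7.04 ± 1.28 in control DMSO (SD, n = 3; log2 2.22, edgeR adjusted p = 1.42e-10). S100A11, which binds the tail of annexin A1, was at 143 CPM in SPARK-ON and 91.1 CPM in control DMSO (log2 0.66, adjusted p = 1.24e-05), and AHNAK was also higher (0.65, 0.00712), whereas S100A16 was lower (-0.48, 0.000317). S100A10, the annexin A2 partner, was picked after its values were seen: it was at 44.2 ± 3.56 CPM in SPARK-ON and 39.4 ± 5.83 CPM in control DMSO and did not pass (log2 0.17, adjusted p = 0.291).

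Among the penta-EF-hand proteins, calcium sensors that include partners of ANXA7 and ANXA11, 1 of 7 was higher and 2 were lower. The same shares over all genes were 21.1% and 20.4%. CAPNS1, the calpain small subunit, was at 199 CPM in SPARK-ON and 409 CPM in control DMSO (log2 -1.04, edgeR adjusted p = 7.59e-09). SRI (sorcin, which binds ANXA7) was lower (-0.60, 7.04e-05), CAPN1 was higher (0.55, 0.000153), and GCA (0.29, 0.0664) did not pass.

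The ferlin and membrane repair group had 4 higher and 2 lower of 8 tested, beside 21.1% and 20.4% of all genes. FER1L5 and TRIM72 passed the filter only through SPARK-ON libraries and had to differ. Without them the group had 2 and 2 of 6. DYSF (dysferlin, a calcium sensor of membrane repair) was at 2.32 CPM in SPARK-ON and 0.704 CPM in control DMSO (log2 1.72, edgeR adjusted p = 0.000204). CAV1 (-0.53, 1.67e-05) and CAVIN1 (-0.49, 9.3e-06), which build caveolae, were lower. FER1L5 had 26 counts against 0, at least 9.47-fold higher.

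In the ESCRT-III group, which seals membrane wounds, 1 of 5 was called, beside 41.6% of all genes. It was VPS4B, an ATPase that takes the complex apart, at 30.9 CPM in SPARK-ON and 67.7 CPM in control DMSO (log2 -1.13, edgeR adjusted p = 1.5e-08). Its paralog VPS4A (-0.30, 0.0807), TSG101 (0.14, 0.181) and PDCD6IP (0.08, 0.437) did not pass. Of 7 scramblases and flippases, which set phosphatidylserine exposure, 1 was higher and 3 were lower, beside 21.1% and 20.4% of all genes. PLSCR1 (-0.85, 7.67e-06) and TMEM30A, a chaperone of flippases (-0.29, 0.00547), were among the lower ones, and PLSCR4 was higher (0.95, 0.000588).

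Of 5 tested genes of annexin A1 and A2 signalling, 3 were higher and 2 lower, beside 21.1% and 20.4% of all genes. Without FPR1, which passed the filter only through SPARK-ON libraries and had to differ, the counts were 2 and 2 of 4. The plasminogen activators parted: PLAU (urokinase) was at 49.6 CPM in SPARK-ON and 23.9 CPM in control DMSO (log2 1.05, edgeR adjusted p = 8.73e-09), and PLAT (tissue plasminogen activator, a ligand of annexin A2) at 31.0 and 86.6 CPM (-1.48, 1.61e-10). PLA2G4A, the phospholipase that annexin A1 inhibits, was at 4.71 and 1.56 CPM (1.59, 2.31e-05). FPR1, an annexin A1 receptor, had 35 counts against 1, a ratio of 38.3 with a 95% interval of 6.43 to 1554. Without control DMSO replicate 2, which held that count, it is at least 8.94-fold, and without control DMSO replicate 3 the ratio is 24.0.

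**Figure D5:**
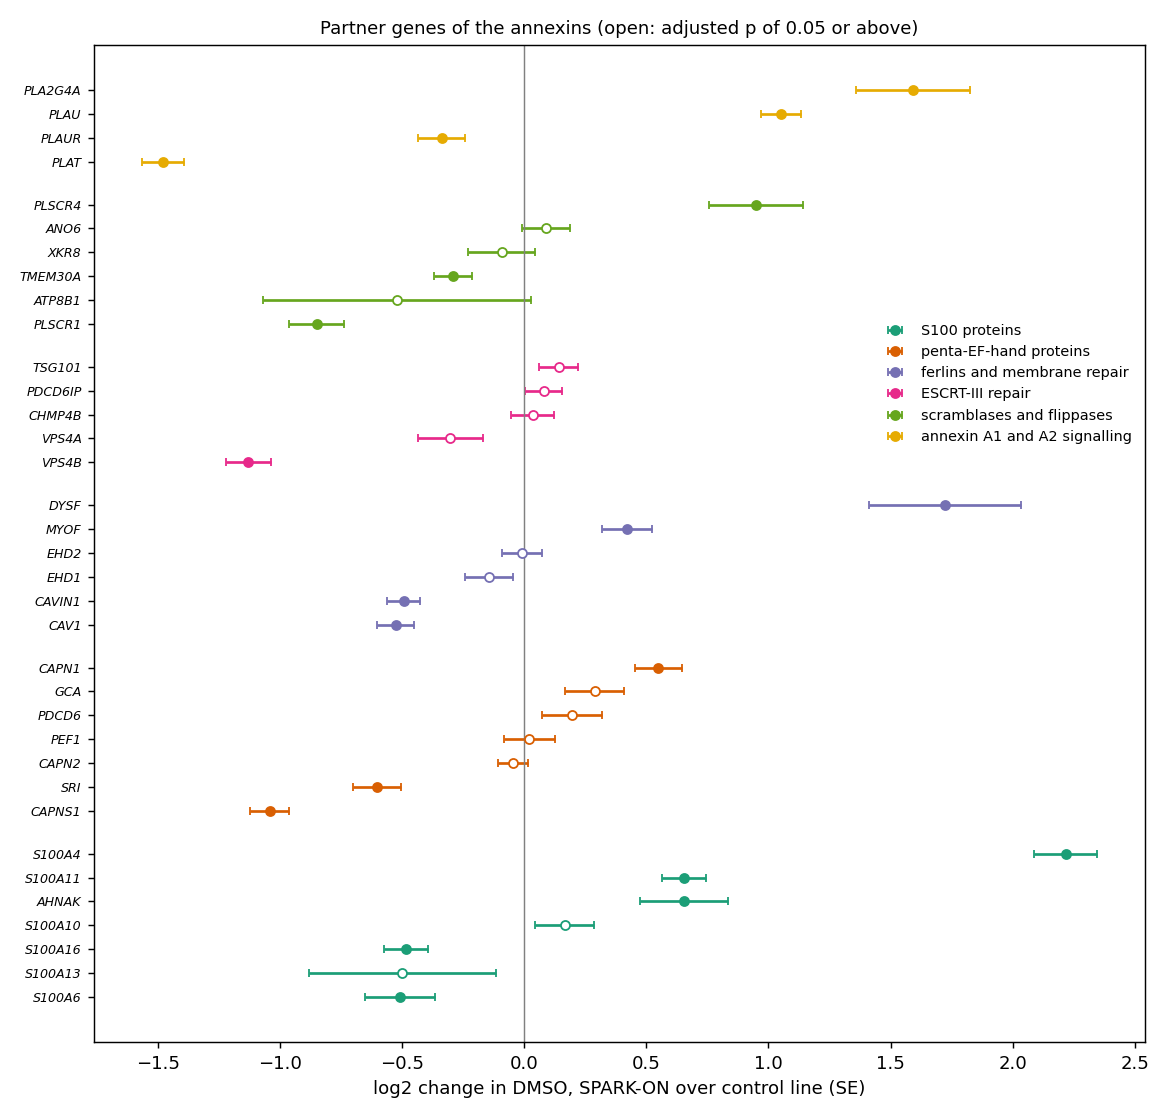
Log2 difference in DMSO, SPARK-ON over control line, for 35 tested partner genes by role group, with bars of 1 SE and open symbols where the adjusted p was 0.05 or above. S100A4 and DYSF lie farthest right and PLAT farthest left; FER1L5, TRIM72 and FPR1, with 1 count or fewer in the control DMSO group, are among those left out.

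The genes whose levels most resembled ANXA8 over the 11 libraries, among 10638 genes with a mean of at least 5 CPM, were LRRK1, CPA4, TUBA4A, ARHGEF40 and PROCR, with Pearson's r of log2 CPM from 0.996 to 0.997. For ANXA1 they were SYTL1, ZC3H12A, B2M, DERL2 and CPVL, with r from 0.984 to 0.994. These are descriptions over libraries that fall into 2 lines, and genes that separate the lines score high: 605 genes had r above 0.95 with ANXA8 and 305 with ANXA1.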

How the data were processed

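The count table was deposited by the authors as whole-number counts per gene, not normalized, per the file's values. The submitters' processing notes name FastQC, fastp, HTSeq, edgeR and hg38; the sources used here give no versions, aligner, strandedness or gene annotation release. Labels identified 11 columns, which were used; another 3 could not be matched and were left out, so planned comparisons with baseline SH-EP were not made.

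The counts went into edgeR 4.0.16 (R 4.3.3): filterByExpr (minimum count 10) kept 16056 genes, including all 10 members, and libraries were TMM scaled. The 4 groups formed 1 layout (glmQLFit, 7 residual degrees of freedom), and glmQLFTest compared them, two-sided. Calls used a Benjamini-Hochberg adjusted p under 0.05, adjusted over every gene tested. The spread between libraries beyond counting error, which edgeR terms biological variation, had a common coefficient of 9.4%. Log2 differences and SE come from this fit. Count ratios have exact binomial intervals at the 95% level and a floor of 3 counts. Alternatives used limma 3.58.1 and DESeq2 1.42.0. Gene positions and lengths are from GENCODE 29, motif windows from RefSeq.

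The members and all gene lists were chosen with earlier results of these data known. The text names all members, the other annexin genes, near copies and ANXA2R, and MYCN, up to 4 genes per partner group with the smallest p in DMSO, and the 5 genes most like ANXA8 and ANXA1. S100A10, TRIM72 and the markers fall outside that rule. Values of 2 listed genes are not reported here.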

Additional observations from a re-analysis of the deposited data

How the results depend on the processing

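The counts of annexins called between the lines include ANXA8 and ANXA10, which had to differ. As reported, 6 of the other 8 members were called in DMSO. The number of annexins called was 8 in DMSO under all 8 other settings, and 6 to 8 when each library was left out in turn. Under lenalidomide it was 6 to 7 in both, and for lenalidomide in control cells 0 throughout. Of the partner genes 21 to 25 were called under other settings and 21 to 26 with a library left out. Leaving out 1 control lenalidomide library leaves a lone sample assumed to vary like the other groups. Fitting only the groups compared gave no value for ANXA8 or ANXA10 in control cells.

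Among single genes, 376 of the alternative values kept direction and call, 9 lost the call, 1 gained it and 12 changed sign; none of the sign changes was in a called gene, and the cause was not tested. With library size alone, the log2 values that changed sign were 0.0050 for ANXA3 and 0.0027 for ANXA5 between the lines under lenalidomide, and -0.0010 for ANXA5 in control cells with lenalidomide. ANXA3 in DMSO then passed (log2 0.52, edgeR adjusted p = 0.0290), and ANXA11 did not (-0.15, 0.0971). Leaving out libraries in control cells, the log2 change with lenalidomide ranged from -0.22 to 0.059 for ANXA7, -0.099 to 0.094 for ANXA5, -3.01 to 0.21 for ANXA10 and -0.11 to 0.076 for ANXA4. The ANXA8 interaction, which holds the comparison that chose the gene and rests on 10 control counts, moved between -4.31 and -1.93.

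Replicate numbers did not pair the samples. Deviations of same-numbered SPARK-ON libraries correlated at -0.0058 to -0.050, and 0 of 3 correlated best with its own number. In the control line same-numbered libraries correlated at -0.55 and -0.48. Deviations of its 2 lenalidomide libraries are exact opposites, so there lenalidomide and DMSO libraries of different number resembled each other. Without control DMSO replicate 1, genes at an unadjusted p under 0.05 (edgeR) went from 774 to 1683 for lenalidomide in control cells. The cause was not tested. With the replicate block, 8 annexins were called in DMSO (6081 genes in all) and 6 under lenalidomide (5645 in all), ANXA11 being lost (adjusted p = 0.0572). In control cells the block gave 0.020 for ANXA4 and -0.0027 for ANXA5.

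Over all genes, calls for lenalidomide in control cells were 7 as reported and 0 to 27 under alternatives, and in SPARK-ON cells 11 as reported, 381 when only the groups compared were fitted and 0 to 45 otherwise. Depth limits ANXA8 and ANXA10 in control libraries, where 3 counts equal 0.139 to 0.184 CPM.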

Other observations

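Beyond the 10 members, ANXA9, ANXA2R and ANXA2P2 also differed between the lines in DMSO. ANXA9, an annexin that lacks working calcium sites, was at 3.27 ± 0.219 CPM in SPARK-ON DMSO and from 1.01 to 2.01 CPM in control DMSO (SD, n = 3; log2 1.11, edgeR adjusted p = 0.00708). ANXA2R, a receptor for annexin A2, was lower, at 3.31 ± 0.506 against 7.07 ± 1.71 CPM (log2 -1.09, adjusted p = 0.000479). The pseudogene ANXA2P2 was lower, at 9.74 ± 2.29 against 13.8 ± 2.28 CPM, with overlapping libraries (log2 -0.50, edgeR adjusted p = 0.0348). ANXA2 itself was lower in the same libraries. Counts of ANXA2P2 may include reads that match both genes, so it is not a separate result. ANXA13, an intestinal and renal annexin, passed the filter only through SPARK-ON libraries and had to differ. It had 25 counts against 5 in DMSO, a ratio of 5.47 with a 95% interval of 2.06 to 18.3. Of those 25 counts, 15 were in replicate 1, and without it the ratio is 3.24; without control DMSO replicate 2 it is 19.1 and without control DMSO replicate 3 it is 3.43. None of these was called for lenalidomide in control cells by edgeR.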
